A study of Rattus norvegicus with 30 samples.

Results

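The genes described here are 32 genes that act in late G2 phase and in mitosis, measured by RNA sequencing in CD31-positive lung cells of wild-type rats. They were taken by gene name from a list that was chosen with earlier results of these data known. All 32 were found, 1 row each, among the 30562 rows of the deposited table, and all 32 were among the 16171 genes with enough counts to be tested. CD31 is a surface protein of endothelial cells, the cells that line blood vessels, and the cells were pulled out with magnetic microbeads against it.

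Lungs were taken 3 weeks after a sham operation or after a Glenn operation, which connects the superior vena cava to a pulmonary artery, so that upper-body venous blood without hepatic venous return perfuses the lung. After surgery the animals ate 1 of 3 modified diets, with a control content, a deficiency or an excess of vitamin A. The 6 groups of 5 libraries are therefore sham control, Glenn control, sham deficient, Glenn deficient, sham excess and Glenn excess. All animals are labelled wild-type, and their strain, age and number per library are not given in the sources used here. Nothing in the labels says that the 5 libraries of a group came from separate animals, so the p-values measure the spread between these libraries. The comparisons are therefore Glenn against sham on each diet, and diet against diet after each operation.

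A dividing cell makes these transcripts in a burst before it divides and loses them soon after. Their level in a tissue therefore depends in part on the share of cells in G2 phase or mitosis. Cyclins A and B bind CDK1 and start mitosis. Kinases such as Aurora B and BUB1 then check that every chromosome is held by the spindle, motors and microtubule proteins move the chromosomes, and the anaphase-promoting complex ends mitosis by destroying cyclin B. In resting adult lung endothelium division is rare, and it increases during vessel repair and remodelling. In sorted bulk cells, more dividing cells and more of these transcripts per dividing cell cannot be told apart.

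Many genes of this kind are switched by the same promoter elements. The DREAM and MuvB complexes bind the cell cycle genes homology region, or CHR, whose common core reads TTTGAA, and the factor NF-Y binds the CCAAT box. RefSeq promoters of the GRCr8 assembly were found for 27 of the 32 genes. Entries were not found for Ccna2, Foxm1, Aurkb, Tpx2 and Ube2c. The window ran from 250 bases before to 50 bases after the annotated start, and both strands were searched. The 150 bases before the start are shown for 7 genes, which were picked because they show the forms the elements take and because 6 of them rose after Glenn surgery while Kif23, with both elements, did not pass the test. Each is written 5′ to 3′ on the gene's own strand, and capitals mark TTTGAA and CCAAT or their reverse complements TTCAAA and ATTGG.
Ccnb2: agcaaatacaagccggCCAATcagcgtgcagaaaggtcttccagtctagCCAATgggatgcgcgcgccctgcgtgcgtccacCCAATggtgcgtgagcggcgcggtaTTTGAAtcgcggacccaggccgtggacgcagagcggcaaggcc
Cdk1: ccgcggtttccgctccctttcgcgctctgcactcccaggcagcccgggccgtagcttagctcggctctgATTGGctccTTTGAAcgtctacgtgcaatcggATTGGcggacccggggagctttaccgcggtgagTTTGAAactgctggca
Mki67: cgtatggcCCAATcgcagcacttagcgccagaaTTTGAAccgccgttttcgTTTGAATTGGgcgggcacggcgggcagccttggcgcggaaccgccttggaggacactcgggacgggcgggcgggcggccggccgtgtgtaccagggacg
Prc1: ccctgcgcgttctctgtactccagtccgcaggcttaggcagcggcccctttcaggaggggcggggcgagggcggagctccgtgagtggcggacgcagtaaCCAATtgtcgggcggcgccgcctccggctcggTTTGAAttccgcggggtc
Anln: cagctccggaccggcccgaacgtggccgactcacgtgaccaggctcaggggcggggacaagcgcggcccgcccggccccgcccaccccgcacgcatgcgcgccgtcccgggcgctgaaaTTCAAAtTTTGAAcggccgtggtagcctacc
Cdc20: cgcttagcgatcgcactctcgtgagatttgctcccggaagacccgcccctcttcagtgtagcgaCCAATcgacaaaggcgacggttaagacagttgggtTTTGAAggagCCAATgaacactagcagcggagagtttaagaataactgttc
Kif23: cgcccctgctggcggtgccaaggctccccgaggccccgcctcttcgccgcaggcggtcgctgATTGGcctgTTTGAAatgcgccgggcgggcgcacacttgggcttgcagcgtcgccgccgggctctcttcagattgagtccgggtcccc

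These windows lie on GRCr8 at chr8:79981659-79981808 for Ccnb2, chr20:19265143-19265292 for Cdk1, chr1:199952594-199952743 for Mki67, chr1:143659331-143659480 for Prc1, chr8:29197514-29197663 for Anln, chr5:137255800-137255949 for Cdc20 and chr8:71320585-71320734 for Kif23. Cdk1 and Prc1 are on the plus strand and the other 5 on the minus strand. Ccnb2 has the classical arrangement, with 3 CCAAT boxes whose first bases lie at -134, -101 and -68 and a TTTGAA core at -43. Cdk1 carries its CCAAT boxes on the opposite strand. In Mki67 a TTTGAA core and a reversed CCAAT box share 1 base. Anln has TTTGAA on both strands, at -31 and -24, and no CCAAT box in its window.

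Of the 27 genes with a promoter entry, 20 (74.1%) had TTTGAA and 19 (70.4%) had CCAAT. Among all 33469 promoters of this length the shares were 18.3% and 37.5%. Both elements were present in 15 of the 27 genes (55.6%) and in 7.41% of all promoters. In 14 genes (51.9%) there were at least 2 CCAAT boxes, against 11.2% of all promoters, and 3 genes had neither element. A match to these letters is a description of the sequence and not evidence of binding in these cells.

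**Figure D1:**
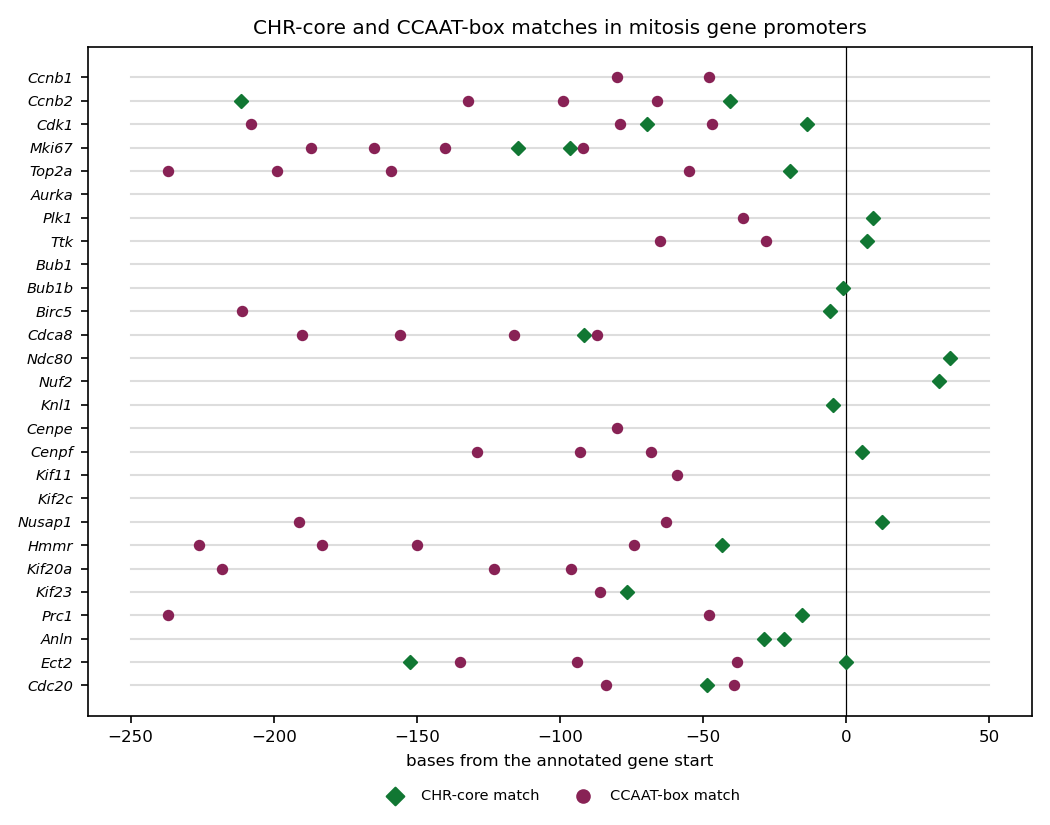
Positions of the CHR core (green diamonds) and the CCAAT box (purple circles), each drawn at the middle of the match on either strand, in the promoter windows of the 27 mitosis genes with a RefSeq entry. The horizontal axis gives bases from the annotated start and each row is 1 gene. CCAAT boxes lie before the start, often several per gene, while many CHR cores lie within 50 bases of the start, on either side.

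Expression is given in CPM, counts per M (mega) of library counts after TMM scaling. A library held 22 to 77.6 M estimated counts in all, with a median of 40 M. The mitosis genes were rare transcripts: outside Foxm1, an estimated count ranged from 4 to 1273 per gene and library, so counting error is large for the lowest. CPM values are not scaled by transcript length, so changes are read within a gene. Sums of CPM over genes are also given, and in these the genes with the most counts weigh most. In sham libraries Kif23 averaged 15.2 CPM and Bub1b 1.11 CPM. In the library names the numbers fall in separate ranges, called here series A (22 libraries) and series B (8 libraries), and the fit held this as a term. Series B libraries occur in the sham deficient (3), Glenn deficient (2) and Glenn excess (3) groups. The transplantation antigen gene RT1-CE16 was above 100 CPM in 13 libraries and below in 17, and all series B libraries were among the 13. All 8 endothelial markers examined were expressed above 1 CPM in every group, and they summed to 8597 to 10740 CPM in sham libraries and 6320 to 8897 CPM in Glenn libraries.

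The summed level of the 32 genes was higher after Glenn surgery on each diet by the group means, but the libraries of a group were far from equal. Summed CPM were 121 ± 37.9 in sham control and 163 ± 74.1 in Glenn control libraries, 112 ± 26.6 in sham deficient and 223 ± 95 in Glenn deficient, and 133 ± 30.1 in sham excess and 211 ± 28.6 in Glenn excess (SD, n = 5 each). All 15 sham libraries lay between 73.3 and 168 CPM. Of the 15 Glenn libraries, 8 lay above every sham library, namely 1 on the control diet, 2 on the deficient diet and all 5 on the excess diet. Glenn control replicate 1 stood at 293 CPM while the other 4 of its group lay at 115 to 148 CPM, inside the sham range. Glenn deficient replicates 2 and 3 stood at 312 and 340 CPM and the other 3 at 141 to 163 CPM. The Glenn excess libraries were the most even, at 179 to 253 CPM.

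**Figure D2:**
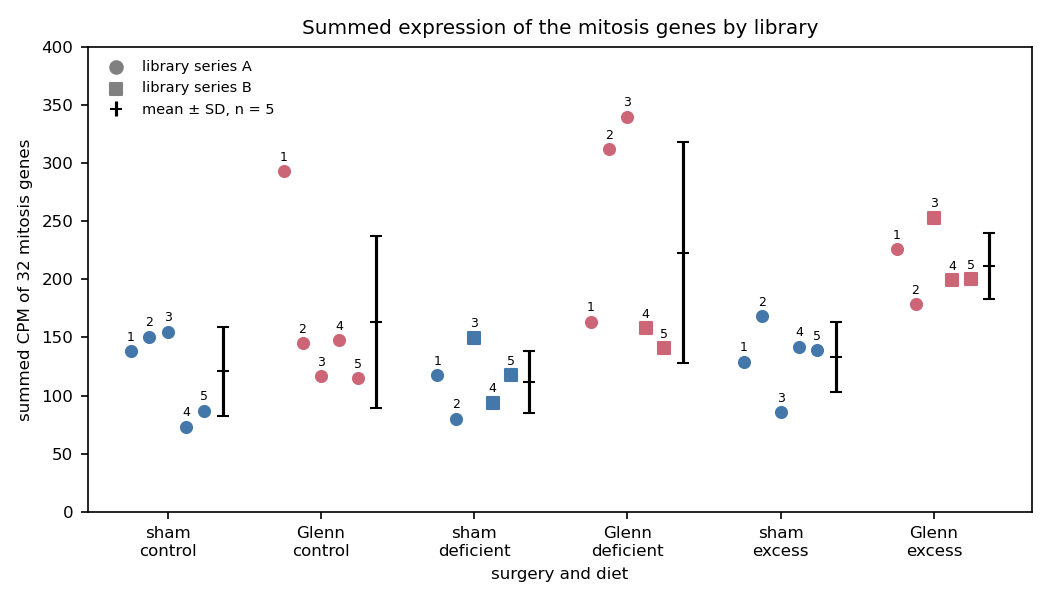
Summed CPM of the 32 mitosis genes (vertical axis) in each of the 30 libraries, by surgery and diet (horizontal axis), numbered by replicate. Circles are series A, squares are series B, and black bars show the mean ± SD of 5 libraries. The 3 highest libraries, Glenn deficient replicates 3 and 2 and Glenn control replicate 1, stand at 340, 312 and 293 CPM, and all 5 Glenn excess libraries lie above the highest sham library at 168 CPM.

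Averaged over the 3 diets, 26 of the 32 genes rose after Glenn surgery and 0 fell (edgeR quasi-likelihood test, adjusted p under 0.05 after Benjamini-Hochberg adjustment over all 16171 genes). Over all genes tested, 23.4% were called higher and 24.7% lower in the same comparison. Since the list was chosen with earlier results of these data known, the count beside these shares is a description and not independent evidence. The median log2 change of the 32 genes was 0.85, against -0.01 for all genes, and 31 of the 32 values were positive. In the pooled 15 against 15 libraries, 0 members had all Glenn libraries above all sham libraries, a pattern seen in 3.1% of all genes. The calls did not rest on 1 library: with each of the 30 libraries left out in turn, 25 to 27 members were called higher, and 25 of the 26 were called in all 30 fits, the exception being Plk1.

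The 4 genes that drive entry into mitosis and are made as its engine rose together. Ccna2, Ccnb1 and Ccnb2 encode cyclins A2, B1 and B2, and Cdk1 their kinase partner. Their average log2 changes were 0.68, 0.84, 1.10 and 0.80, and all 4 passed the test. Cdk1 missed it in the RT1-CE16-low libraries alone (0.69, edgeR adjusted p 0.0578). Ccnb2 (ENSRNOG00000063216) stood at 2.88, 2.92, 3.78, 1.04 and 1.33 CPM in sham control replicates 1 to 5 and at 9.09, 3.69, 2.77, 3.93 and 2.2 in Glenn control replicates 1 to 5. On the deficient diet Ccnb2 measured 2.4, 1.72, 3.77, 1.95 and 2.72 CPM in sham and 4.88, 11.3, 11.3, 4.29 and 3.39 CPM in Glenn libraries. On the excess diet Ccnb2 measured 2.81, 3.68, 0.79, 4.21 and 4.74 in sham and 8.02, 5.54, 6.66, 5.23 and 4.97 CPM in Glenn libraries. The excess groups did not overlap, and in the other diets the high values came from Glenn control replicate 1 and Glenn deficient replicates 2 and 3. Pooled over diets Ccnb2 stood at 2.71 ± 1.19 CPM in sham and 5.82 ± 2.9 CPM in Glenn libraries (SD, n = 15 each), an average log2 change of 1.10 (SE 0.25, edgeR adjusted p 0.00048).

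Foxm1 (ENSRNOG00000005936) encodes a transcription factor that binds many mitosis promoters together with MuvB, and it was the member that departed from the rest; it is singled out after its values were seen. Its average log2 change was -0.74 (SE 0.45, edgeR adjusted p 0.184), the one negative value among the 32. Its values were 1.26, 1.77, 1.63, 0.461 and 1.43 CPM in sham control and 3.98, 1.89, 1.51, 2.7 and 0.000 in Glenn control libraries. The sham deficient libraries gave 2.56, 1.49, 2.51, 1.8 and 1.57 CPM for Foxm1 and the Glenn deficient libraries 0.904, 0.255, 0.59, 0.911 and 0.000, so that all 5 Glenn libraries lay below all 5 sham libraries. The share of all genes with this downward pattern was not counted, and 13.7% of all genes were called lower on this diet. The sham excess libraries gave 1.78, 3.15, 0.763, 4.23 and 2.05 and the Glenn excess libraries 2.41, 1.65, 0.565, 1.06 and 0.000 CPM. The change on the deficient diet was -2.04 (SE 0.83, edgeR adjusted p 0.0683) and did not pass the test. The table lists Foxm1 at 0 in the fifth replicate of each Glenn group, and its estimated counts were not whole numbers in the other 27 of the 30 libraries. Whether a listed 0 stands for an absence of reads was not tested.

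Mki67 encodes Ki-67, which coats mitotic chromosomes and is the usual stain for dividing cells, and Top2a encodes the topoisomerase that untangles sister chromatids. Both rose on average. Mki67 (ENSRNOG00000028137) stood at 5.88, 7.17, 9.56, 2.91 and 3.59 CPM in sham control and 20.5, 8.97, 8.25, 8.5 and 6.34 in Glenn control libraries. With vitamin A deficiency the Mki67 values were 10.1, 4.87, 7.82, 4.86 and 6.64 CPM (sham) and 10.3, 15.1, 18.4, 10.7 and 6.82 (Glenn). With vitamin A excess they were 8.57, 9.18, 4.69, 6.09 and 6.96 (sham) and 13, 12.7, 14, 10.7 and 10.9 CPM (Glenn). All Glenn excess libraries lay above all sham excess libraries, and the other diets overlapped. The average log2 change of Mki67 was 0.87 (SE 0.18, edgeR adjusted p 0.000224), from 6.59 ± 2.18 CPM in sham to 11.7 ± 4.04 CPM in Glenn libraries (SD, n = 15 each).

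Top2a (ENSRNOG00000053047) was the more scattered of these genes. Its values were 6.23, 8.34, 7.81, 2.26 and 3.56 CPM in sham control and 13.7, 6.77, 5.37, 5.68 and 4.2 in Glenn control libraries. Values of Top2a on the deficient diet were 4.39, 1.63, 7.03, 3.61 and 4.62 CPM in sham and 5.57, 19.6, 20.3, 8.27 and 6.3 in Glenn libraries. Values on the excess diet were 5.35, 9.01, 1.96, 8.57 and 5.56 in sham and 10.2, 9.51, 17.7, 10.5 and 8.49 CPM in Glenn libraries. No diet separated the Top2a groups fully, and Glenn deficient replicates 2 and 3 carried the highest values of the 30 libraries. The average log2 change was 0.91 (SE 0.26, edgeR adjusted p 0.00502).

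Of the 5 mitotic and checkpoint kinases, 4 rose on average. Bub1b and Bub1, a pseudokinase and a kinase of the spindle checkpoint, had log2 changes of 1.15 and 0.77, Ttk, the checkpoint kinase also called MPS1, 1.07, and Plk1, which acts at centrosomes and kinetochores, 0.66. Plk1 was the weakest call (edgeR adjusted p 0.0302) and missed the threshold without Glenn control replicate 1 (0.0743), sham deficient replicate 4 (0.0502), Glenn deficient replicate 2 (0.0664) or 3 (0.0621), in series A alone (0.107) and in the RT1-CE16-low libraries alone (0.0882). Aurka, the spindle pole kinase Aurora A, had 0.24 (SE 0.12, edgeR adjusted p 0.0986); it passed without sham control replicate 2 (0.0498) or Glenn deficient replicate 1 (0.0455), and in series A alone (0.45, 0.0201). Bub1 (ENSRNOG00000032778) had the smallest adjusted p of the group. It stood at 6.08, 5.55, 5.23, 2.45 and 4.16 CPM in sham control and 13.2, 5.09, 6.07, 6.37 and 7.76 in Glenn control libraries. On the deficient diet Bub1 measured 4.42, 4.55, 6.62, 4.38 and 5.16 CPM in sham and 6.09, 14.2, 15.3, 5.44 and 9.38 CPM in Glenn libraries. On the excess diet Bub1 measured 4.75, 6.5, 7.19, 6.42 and 5.18 in sham and 8.39, 6.96, 12.1, 9.22 and 8.75 CPM in Glenn libraries. Only single sham libraries reached into the Glenn range of the deficient and excess diets, and the average log2 change was 0.77 (SE 0.16, edgeR adjusted p 0.000222).

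The chromosomal passenger complex corrects wrong spindle attachments and later guides cytokinesis, and its 3 measured genes all rose. Aurkb, its kinase Aurora B, had an average log2 change of 0.94 (SE 0.18, edgeR adjusted p 5.21e-05), Birc5, which encodes survivin, 0.87, and Cdca8, which encodes borealin, 0.43. Cdca8 missed the threshold in series A alone (0.40, edgeR adjusted p 0.0944) and in the RT1-CE16-low libraries alone (0.40, 0.141). Aurkb (ENSRNOG00000005659) stood at 2.88, 2.65, 2.93, 1.46 and 1.56 CPM in sham control and 5.21, 2.68, 2.98, 4.8 and 2.65 in Glenn control libraries. The sham deficient libraries gave 1.83, 1.66, 2.54, 1.78 and 1.96 CPM for Aurkb and the Glenn deficient libraries 3.21, 4.9, 6.3, 2.66 and 2.87. The sham excess libraries gave 2.38, 2.74, 1.01, 2.92 and 1.78 and the Glenn excess libraries 4.42, 3.09, 4.58, 4.06 and 7.47 CPM. Sham and Glenn libraries did not overlap on the deficient and excess diets, and the highest value of all, 7.47 CPM, was Glenn excess replicate 5.

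All 5 kinetochore genes rose. Ndc80, Nuf2 and Knl1 encode parts of the outer kinetochore, which grips microtubules, and had log2 changes of 0.92, 1.11 and 0.80. Cenpe, a kinesin that brings chromosomes to the spindle equator, had 0.66, and missed the threshold in series A alone (0.68, edgeR adjusted p 0.0686) and in the RT1-CE16-low libraries alone (0.78, 0.0699). Cenpf (ENSRNOG00000003388), a large protein of the outer kinetochore, had the largest average change of the 32 genes, 1.23 (SE 0.21, edgeR adjusted p 2.17e-05). It stood at 1.97, 1.27, 2.27, 2.16 and 1.56 CPM in sham control and 7.94, 3.05, 1.58, 2.06 and 1.98 in Glenn control libraries. With vitamin A deficiency the Cenpf values were 2.77, 1.46, 3.55, 0.986 and 1.96 CPM (sham) and 3.19, 5.11, 6.13, 3.14 and 3.95 (Glenn). With vitamin A excess they were 1.45, 1.12, 0.954, 1.94 and 1.02 (sham) and 4.01, 3.47, 5.64, 4.28 and 5.86 CPM (Glenn). On the excess diet every Glenn library was at or above 3.47 CPM and every sham library at or below 1.94 CPM, while the groups of the other diets overlapped.

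Among the 5 spindle motors and microtubule proteins, 3 rose. Kif11, the motor that pushes the spindle poles apart, had a log2 change of 0.98, Tpx2, which nucleates spindle microtubules and activates Aurora A, 1.13, and Nusap1, a microtubule-bundling protein, 0.89. Kif2c, a kinesin that shortens microtubules, and Hmmr, a spindle-associated hyaluronan receptor, did not pass: Kif2c had 0.25 (SE 0.19, edgeR adjusted p 0.277) and Hmmr had 0.19 (SE 0.18, edgeR adjusted p 0.397). Tpx2 (ENSRNOG00000008165) stood at 2.73, 4.8, 5.4, 1.6 and 2.06 CPM in sham control and 10.9, 4.97, 4.49, 5.35 and 3.62 in Glenn control libraries. Values of Tpx2 on the deficient diet were 2.64, 2.25, 4.39, 2.79 and 2.83 CPM in sham and 5.85, 13.4, 15.2, 4.65 and 5.56 in Glenn libraries. Values on the excess diet were 3.1, 7.5, 1.25, 4.15 and 5.09 in sham and 9.02, 5.38, 10.6, 8.03 and 8 CPM in Glenn libraries. The deficient groups did not overlap for Tpx2, and on the excess diet sham replicate 2 lay inside the Glenn range.

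The 5 genes of the spindle midzone and of cytokinesis split. Prc1, which bundles midzone microtubules, rose by 1.11, Anln, the contractile ring scaffold anillin, by 0.92, and the midzone kinesin Kif20a by 0.67 on the log2 scale. Kif23, the kinesin of centralspindlin, and Ect2, the exchange factor that switches on the contractile ring, did not pass: Kif23 had 0.09 (SE 0.12, edgeR adjusted p 0.538) and Ect2 had 0.25 (SE 0.20, edgeR adjusted p 0.307). In series A alone Kif23 passed (0.38, edgeR adjusted p 0.0311). Pooled over diets Kif23 stood at 15.2 ± 3.35 CPM in sham and 16 ± 4.66 CPM in Glenn libraries (SD, n = 15 each). Kif23 and Ect2 both have TTTGAA and CCAAT in their promoter windows, as the Kif23 sequence above shows.

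Anln (ENSRNOG00000014343) was the one member called higher on every diet and had the smallest adjusted p of the 32 on average. Its call on the control diet (0.73, edgeR adjusted p 0.0488) was lost in 17 of the 30 fits that left out 1 library, with adjusted p up to 0.225 without Glenn control replicate 1. It stood at 6.33, 5.71, 6.54, 3.28 and 3.46 CPM in sham control and 14.2, 8.32, 7.67, 6.22 and 5.6 in Glenn control libraries. On the deficient diet Anln measured 5.12, 4.46, 7.12, 4.59 and 4.88 CPM in sham and 7.78, 12.6, 19, 8.22 and 7.21 CPM in Glenn libraries. On the excess diet Anln measured 3.88, 5.12, 3.35, 5.47 and 7.05 in sham and 7.81, 9.34, 11.9, 10.1 and 8.79 CPM in Glenn libraries. Sham and Glenn libraries did not overlap on the deficient and excess diets, while on the control diet Glenn replicates 4 and 5 lay within the sham range. Its average log2 change was 0.92 (SE 0.16, edgeR adjusted p 1.9e-05), from 5.09 ± 1.29 CPM in sham to 9.65 ± 3.49 CPM in Glenn libraries (SD, n = 15 each).

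Both genes of the anaphase-promoting complex pathway rose. Cdc20, its activator, had an average log2 change of 0.62, and Ube2c, the ubiquitin-conjugating enzyme that works with it, 1.21 (SE 0.28, edgeR adjusted p 0.000693). Ube2c (ENSRNOG00000015131) stood at 3.28, 1.93, 2.38, 0.413 and 1.04 CPM in sham control and 7.89, 2.65, 2.67, 2.65 and 2.09 in Glenn control libraries. The sham deficient libraries gave 2.38, 0.583, 2.1, 1.01 and 1.37 CPM for Ube2c and the Glenn deficient libraries 2.67, 8.5, 6.49, 2.37 and 2.26. The sham excess libraries gave 1.74, 3.44, 0.654, 2.97 and 2.34 and the Glenn excess libraries 6.23, 4.53, 3.92, 2.89 and 3.83 CPM. Outside Glenn control replicate 1, the Glenn control libraries lay between 2.09 and 2.67 CPM, within the sham control range.

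**Figure D3:**
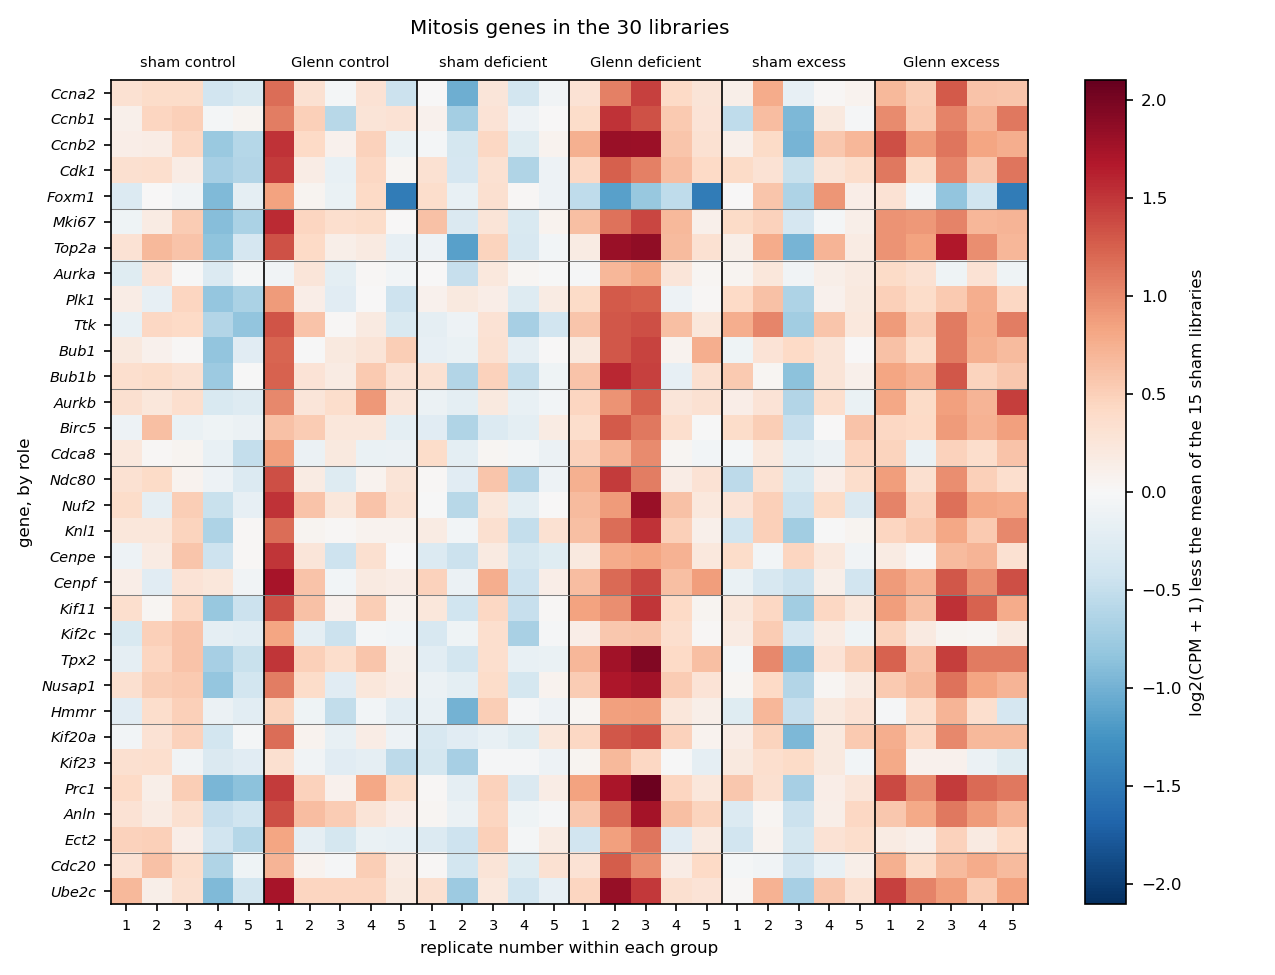
Each cell is log2(CPM + 1) of 1 mitosis gene (rows, grouped by role) in 1 library (columns, grouped by surgery and diet, replicates 1 to 5), less the mean of the 15 sham libraries for that gene; red is higher and blue lower. Glenn control replicate 1 and Glenn deficient replicates 2 and 3 are red in nearly every row, the Glenn excess libraries are evenly red, and Foxm1 is blue in all 5 Glenn deficient libraries as well as in the other Glenn libraries where it is listed at 0.

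Within single diets fewer members passed the test. On the control diet 2 of 32 were called higher and 0 lower, where 11.8% of all genes were called higher and 13.1% lower. The 2 were Mki67, with 0.85 (SE 0.31, edgeR adjusted p 0.0421), and the cytokinesis gene Anln, with 0.73 (SE 0.27, edgeR adjusted p 0.0488). The median log2 change of the 32 genes was 0.55 (all genes -0.01) and 28 values were positive. Both calls and much of the median rested on Glenn control replicate 1, which was the highest of its group for 31 of the 32 genes and above every sham library for 27. Without it 0 members were called, the median was 0.13, and the changes of Mki67 and Anln were both 0.46. Without sham control replicate 4 or 5, 0 members were called as well. Without Glenn deficient replicate 3, which enters only through the shared estimate of the spread, 4 were called. One was called without sham control replicate 2, sham deficient replicate 1, 2, 4 or 5, Glenn deficient replicate 2, sham excess replicate 1, 2 or 4, or Glenn excess replicate 2 or 5. At an unadjusted p under 0.05 the count was 9, and 0 members separated the 5 Glenn from the 5 sham libraries, against 7.78% of all genes.

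On the deficient diet 18 of 32 genes were called higher and 0 lower, where 13.7% of all genes were called higher and 13.7% lower. The median log2 change was 1.03 (all genes -0.01) and 31 values were positive. The largest changes among those called were Ttk, 1.63, Birc5, 1.60, and Tpx2, 1.53. For Ccna2, Cdk1, Aurkb, Cenpe, Tpx2 and Anln, 6 genes in all, every Glenn library lay above every sham library, a pattern seen in 10% of all genes. The count was 10 without Glenn deficient replicate 2, 9 without replicate 3 and 8 without sham deficient replicate 2. Aurkb, Anln, Birc5, Bub1, Cenpe, Nuf2, Nusap1 and Tpx2, 8 genes, were called in all 30 fits that left out 1 library. The library series differed within these groups. In series A the summed level was 80.1 to 118 CPM in sham and 163 to 340 CPM in Glenn libraries, and in series B 93.9 to 150 and 141 to 158 CPM. Fitted within series A the median log2 change was 1.47 with 18 genes called, and within series B it was 0.43 with 0 called from 3 sham and 2 Glenn libraries. Of the 18 genes called with all libraries, 14 were also called within series A and 4 were not. The shares of all genes called in these fits are not given here. Series B and the RT1-CE16 level coincide on this diet, and their part in the difference between the series was not tested.

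On the excess diet 7 of 32 genes were called higher and 0 lower, where 11.6% of all genes were called higher and 10.4% lower. They were Ccnb1, Mki67, Aurkb, Cenpf, Prc1, Anln and Cdc20, with log2 changes of 1.16, 1.00, 1.12, 1.82, 1.36, 1.01 and 0.93. The median log2 change was 0.91 (all genes -0.02) and 31 values were positive. In 9 genes, Ccnb2, Mki67, Aurkb, Cenpf, Kif11, Nusap1, Prc1, Anln and Cdc20, every Glenn library lay above every sham library, against 8.59% of all genes. Sham excess holds series A only, while Glenn excess holds 2 series A and 3 series B libraries. The series term therefore rests on the groups that hold both series, namely sham deficient, Glenn deficient and Glenn excess. With 2 Glenn and 5 sham libraries of series A alone, 1 member was called and the median was 0.71. With the RT1-CE16 level as the term in place of the series, 15 were called and the median was 1.02. The shares of all genes called in these fits are not given here. The count was 11 without Glenn control replicate 1 and 11 without sham deficient replicate 2.

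**Figure D4:**
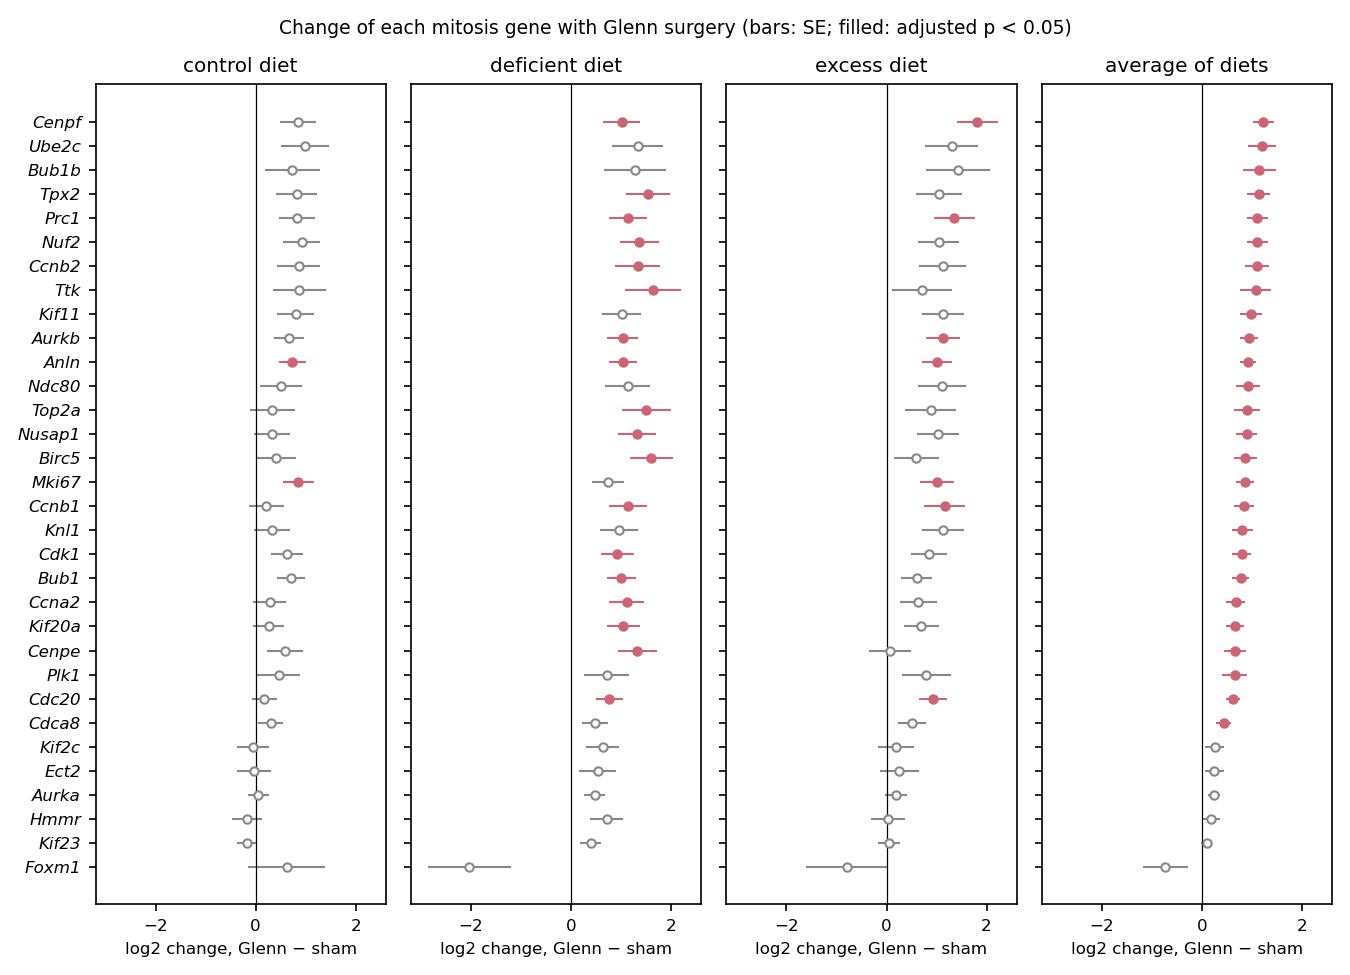
Log2 change of each of the 32 mitosis genes between Glenn and sham libraries (horizontal axis) on each diet and averaged over diets, with bars of 1 SE and filled points for adjusted p under 0.05; genes are ordered by the average change. Most points lie right of 0 in all 4 panels, Kif2c, Ect2, Aurka, Hmmr and Kif23 average 0.25 or less, and Foxm1 is left of 0 on the deficient and excess diets.

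**Figure D5:**
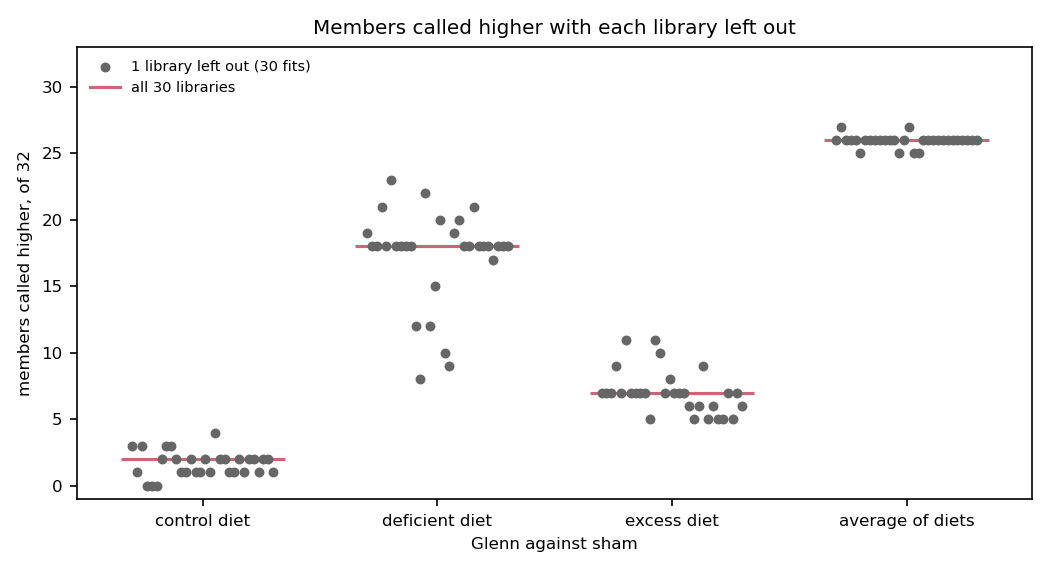
Number of the 32 mitosis genes called higher after Glenn surgery (vertical axis) when 1 of the 30 libraries was left out (grey points, 30 fits per comparison), against the count with all libraries (red line). The average over diets stayed at 25 to 27, whereas the count ranged from 0 to 4 on the control diet, 8 to 23 on the deficient diet and 5 to 11 on the excess diet.

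Across diets, 19 members were called on at least 1 diet: 12 on 1, 6 on 2 and Anln on all 3. The log2 change was positive on all 3 diets for 27 of the 32. It was smallest on the control diet for 27 genes, and largest on the deficient diet for 20, on the excess diet for 11 and on the control diet for 1. The genes moved together from library to library, so these counts are not independent observations of a diet. The differences between diets were tested directly. The Glenn effect on the deficient minus that on the control diet had a median of 0.56 and was positive for 30 of 32, the excess minus control effect a median of 0.29, and the excess minus deficient effect a median of -0.14. In each of these 3 tests 0 members were called by edgeR and 0 by DESeq2, and 0%, 0.0186% and 0% of all genes were called by edgeR in either direction. At an unadjusted p under 0.05 there were 2 (Foxm1 and Birc5), 0 and 1 (Cenpe). Standard errors of these differences ran from 0.29 to 1.18 on the log2 scale, so a difference of the median size could not be resolved in a single gene. For Mki67 the deficient minus control difference was -0.11 (SE 0.44), for Top2a 1.17 (SE 0.66) and for Anln 0.31 (SE 0.39).

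Diet alone left these genes without a call. After sham surgery the deficient minus control, excess minus control and excess minus deficient comparisons called 0 of 32 members each by edgeR and 0 by DESeq2, with medians of -0.04, 0.14 and 0.13. Over all genes they called 0%, 0.241% and 0.0124% in either direction. At an unadjusted p under 0.05 the member counts were 0, 0 and 1 (Cenpe). After Glenn surgery the deficient and excess groups stood above the control group for 31 and 30 of the 32 genes, with medians of 0.48 and 0.47. These 2 comparisons share the 5 Glenn control libraries, and the genes moved together, so the counts of genes are not independent observations. The excess minus deficient median was -0.05. Again 0 members were called in each by edgeR and 0 by DESeq2, where edgeR called 0.00618%, 1.47% and 0% of all genes, and the unadjusted counts were 3 (Aurka, Nusap1 and Kif23), 0 and 0.

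The 32 genes moved together from library to library. After subtracting each group's mean from log2(CPM + 1), the 496 pairs of members had a median Pearson correlation of 0.693 over the 30 libraries (range 0.044 to 0.933), 418 pairs were above 0.5 and 0 were below 0. These points share library depth, preparation and cell yield. Ccnb2, Nusap1 and Top2a followed the mean of the other members most closely, at 0.95, 0.943 and 0.935. Foxm1 (0.461), Aurka (0.552), Kif23 (0.598) and Cenpe (0.632) followed it least. Among the 16139 other tested genes, the 10 most like the members' mean were Cdca3 (0.926), Rrm2 (0.923), Pimreg (0.909), Cdkn3 (0.903), Tacc3 (0.891), Kif18b (0.879), Racgap1 (0.876), Ncapd2 (0.876), Uhrf1 (0.857) and Ncaph (0.857). Of the 50 most like, 17 were on a list of further mitosis genes and 9 on a list of DNA replication and G1/S genes.

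Other cell cycle genes were described from lists of the same kind, also chosen with earlier results of these data known. Of 44 further mitosis genes tested, 35 rose and 2 fell on average, with a median log2 change of 0.72, where 23.4% of all genes rose and 24.7% fell. The 3 with the smallest adjusted p were Fam83d, a spindle protein, which fell by 1.62 on the log2 scale, from 25.3 ± 3.99 to 8.2 ± 1.55 CPM, Cks1b, a CDK1-binding subunit, with 0.81, and Smc2, a condensin core subunit, with 0.51 (SD, n = 15 each). Of 40 DNA replication and G1/S genes, 27 rose and 3 fell (median 0.36), led by Pola1, the catalytic subunit of polymerase alpha, with 0.96, the helicase subunit Mcm6 with 0.80 and the chromatin assembly factor Chaf1a with 0.61. By diet, 7, 17 and 12 further mitosis genes and 8, 13 and 11 replication genes were called higher with control, deficient and excess vitamin A, where 11.8%, 13.7% and 11.6% of all genes were called higher. On each diet 2 further mitosis genes and 1 replication gene were called lower, where the shares of all genes were 13.1%, 13.7% and 10.4%. Of 30 cell cycle brakes and G1 regulators, 12 rose and 8 fell (median 0.13). On the log2 scale Myc rose by 1.10, from 57.5 ± 8.83 to 120 ± 20.7 CPM, cyclin D2 (Ccnd2) by 1.09, from 48.4 ± 8.64 to 102 ± 19.3 CPM, and the antiproliferative gene Btg1 by 0.43, from 430 ± 45 to 573 ± 36.4 CPM (SD, n = 15 each). The other D cyclins and a kinase partner, named after their values were seen, fell: Ccnd3 by 0.55, Ccnd1 by 0.47 and Cdk6 by 0.53 on the log2 scale. Cdk4, another kinase partner, was not called (0.07, edgeR adjusted p 0.129), at a mean of 85.4 CPM in sham and 89.1 CPM in Glenn libraries.

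Markers of several other cell types moved with surgery. The calls are for the average of diets, where 23.4% of all genes were called higher and 24.7% lower. All 8 mural cell markers rose, and they summed to 161 to 327 CPM in sham and 479 to 1665 CPM in Glenn libraries. All 6 lymphatic endothelial markers rose (1090 to 2004 against 2468 to 5101 CPM), and 6 of 7 fibroblast markers rose (1275 to 3263 against 1806 to 4693 CPM, mostly Col3a1, which was not called). None of these markers was at 0 in any library. All 6 type 2 alveolar markers fell (34800 to 59900 against 24750 to 56230 CPM, mostly the surfactant gene Sftpc), and so did all 4 platelet and megakaryocyte markers (23.4 to 98.6 against 19.9 to 91.4 CPM, with Ppbp at 0 in 9 libraries). Of 5 type 1 alveolar markers tested 3 rose and 1 fell (2384 to 3411 against 2739 to 4109 CPM, mostly Cav1). Cav1 averaged 2165 CPM in sham and 2307 CPM in Glenn libraries and was not called (edgeR adjusted p 0.175). Of the 8 endothelial markers Tie1 and Emcn rose, Tek, Cdh5, Egfl7, Kdr and Cldn5 fell, and Pecam1, which encodes CD31, had a log2 change of -0.16 (edgeR adjusted p 0.0692). Macrophage and monocyte markers split, with 2 higher and 2 lower of 6 tested (13110 to 24540 against 8139 to 18940 CPM, mostly Lyz2), and Marco was at 0 in 26 libraries. The 7 T and NK cell markers in the table summed to 0.181 to 11.9 CPM in sham and 0.0208 to 2.9 CPM in Glenn libraries, with Cd3e at 0 in 13 and Cd3d in 24 libraries. Of 5 T and NK cell markers tested, 0 rose and 1 fell. The 5 B cell markers summed to 2.11 to 21.4 and 0.561 to 9.22 CPM, and 0 of the 4 tested were called. Mesothelial markers had 0 calls among 4 tested. Of 3 erythroid markers tested 1 rose and 1 fell, and of 2 neutrophil markers tested 0 rose and 1 fell. In the 3 libraries with the highest summed mitosis level, Glenn deficient replicates 3 and 2 and Glenn control replicate 1, the mean log2(CPM + 1) of the lymphatic markers was 7.84, 8.07 and 8.03, against 7.38 to 7.94 in the other 12 Glenn libraries; the last 2 were the highest of all 30. The fibroblast mean was 6.91, 7.04 and 5.91 (others 5.58 to 6.91), the mural mean 7.03, 5.91 and 5.62 (others 5.35 to 6.56) and the endothelial mean 9.70, 9.85 and 9.77 (others 9.41 to 9.91). Glenn deficient replicate 3 thus held the highest mural and replicate 2 the highest fibroblast value of the 30 libraries. In the same order, the type 1 alveolar mean was 6.68, 6.92 and 7.34 (others 6.25 to 7.31) and the type 2 mean 10.61, 10.45 and 10.65 (others 10.53 to 11.60). The erythroid mean was 1.58, 1.76 and 1.22 (others 1.02 to 1.76) and the neutrophil mean 0.93, 0.74 and 0.21 (others 0.15 to 0.58). The part of these cells in the change of the mitosis genes was not tested.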

How the data were processed

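CD31-positive rat lung cells were sorted on microbeads, RNA came from the PureLink mini kit and cDNA libraries from Takara's low-input SMART-Seq v4 kit, per the labels' protocols. The authors deposited a table of estimated counts for each gene, whose name gives salmon as the counter, and 13.6% of the values were not whole. The submitters' processing notes name FastQC, Trim Galore, STAR, Picard and Salmon and the build mRatBN7.2 (rn7). The annotation release and strandedness are not given in the sources used here. All 30 sample columns were used.

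The estimated counts were rounded and fitted in R 4.3.3 with edgeR 4.0.16 (filterByExpr, minimum count 10, minimum total 15; TMM factors 0.938 to 1.06; estimateDisp, glmQLFit with robust = TRUE and glmQLFTest). The design held 6 group means and the library series as a term. P-values were adjusted by Benjamini-Hochberg over 16171 genes, and the threshold was 0.05. The SE is the absolute log2 change over the square root of the F statistic. No pair of libraries within a group agreed within sampling noise. The fit was tested on simulated data with 200 changed genes. Values in every library are given for Mki67, Top2a, the member of each role with the smallest average adjusted p and any member called on the control diet, and 3 genes are named from each further list. Alternatives were no series term, each series or RT1-CE16 level alone, RT1-CE16 as the term, DESeq2 1.42.0 and its size factors, no filter, a replicate-number block, only the groups compared, and leaving out each library. Promoters came from RefSeq (GRCr8). The members and lists were chosen with earlier results of these data known.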

Additional observations from a re-analysis of the deposited data

Results flagged for a closer look

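In each group of 5 libraries, the gap between the highest or the lowest CPM and the nearest of the others was divided by the range of the group, for the 32 genes and for their sum. Of 198 such sets, 29 held a library further apart than 95% of sets of 5 normally distributed values would by chance. About 9.9 are expected on that assumption, which was not checked for these CPM values. The sets are not independent, since the genes move together.

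Glenn control replicate 1 was the high library in 17 of the 29. Its gap took this share of the group's range: 0.725 for Bub1b, 0.749 for Ccnb2, 0.734 for Cdca8, 0.762 for Cdk1, 0.748 for Cenpe, 0.768 for Cenpf, 0.866 for Ect2, 0.844 for Kif20a, 0.775 for Kif2c, 0.972 for Knl1, 0.814 for Mki67, 0.779 for Ndc80, 0.803 for Nuf2, 0.73 for Top2a, 0.763 for Tpx2, 0.9 for Ube2c and 0.817 for the sum of the 32 genes. Knl1, for instance, stood at 6.34 CPM in that library and at 2.32 to 2.44 CPM in the other 4.

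Sham deficient replicate 3 was high for Anln (0.753), Cenpe (0.744) and Tpx2 (0.727), and sham deficient replicate 5 for Kif20a (0.722). Glenn excess replicate 3 was high for Ccna2 (0.841) and Top2a (0.781), and Glenn excess replicate 1 for Kif23 (0.746). Sham control replicate 2 was high for Birc5 (0.952), at 2.30 CPM against 0.930 to 0.995 CPM. Sham excess replicate 2 was high for Ccna2 (0.762). The low libraries were sham excess replicate 3 for Cdk1 (0.802) and Kif11 (0.767) and sham deficient replicate 4 for Plk1 (0.731).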

How the results depend on the processing

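Averaged over diets, the count of members called higher stayed within 1.5 times the 26 reported under every alternative run (22 to 26), and at 25 to 27 with each library left out, with medians of 0.74 to 0.91. In no alternative did a called gene change direction, and the counts of 0 for diet and for differences between diets stayed at 0 in every alternative and leave-one-out fit run. The counts within diets moved more. On the control diet (2 called) the count was 0 with series A alone, with the RT1-CE16 term, within RT1-CE16-low or RT1-CE16-high libraries, with no filter and with only the groups compared, and 4 with DESeq2; leaving out 1 library gave 0 to 4, with medians of 0.13 to 0.70. On the deficient diet (18 called) it was 0 in series B and 0 in RT1-CE16-high libraries, with medians of 0.43 and 0.42; series A alone and RT1-CE16-low libraries gave medians of 1.47 and 1.46; leaving out 1 library gave 8 to 23, with medians of 0.87 to 1.23. On the excess diet (7 called) it was 1 with series A alone and 1 in RT1-CE16-low libraries, 15 with the RT1-CE16 term, 4 with only the groups compared and 13 with DESeq2; leaving out 1 library gave 5 to 11, with medians of 0.76 to 1.06. Fits on part of the libraries hold fewer samples, and otherwise the cause was not tested. The share of all genes called in each alternative fit is not given beside these counts, so they describe the members alone. Same-numbered sham and Glenn libraries had correlations of -0.246 to 0.231 in their deviations from the group means, above 0.1 in 7 of 15 pairs. Differently numbered libraries were not compared, so these values cannot tell whether the replicate numbers pair the libraries. With the replicate number as a block the counts were 4 (control), 23 (deficient), 1 (excess, with a median of 0.61) and 26 (average). Series B alone was not run for the control and excess diets or the average, and RT1-CE16-high libraries alone not for the excess diet or the average, since a group then has fewer than 2 libraries. Depth limits the rarest genes: outside Foxm1, which is listed at 0 in 3 libraries, the lowest estimated count was 4.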
